A study of Mus musculus with 12 samples.

Results

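Amino acid transport and one-carbon metabolism were followed through 38 genes in mouse splenic B cells of both genotypes, before and after activation. The 38 were listed by symbol, without reference to their measured values in the rule: 11 amino acid carriers of the plasma membrane, and the enzymes and regulators of serine, folate, methionine, glutamine, asparagine, proline, branched-chain amino acid and polyamine metabolism. A probe set of its own, annotated to that symbol alone, was available for 34 of the 38, and these 34 were read by 77 of the 45037 probe sets tested. In all, 18193 genes had such a probe set. Mat2a, Pycr1 and Amd1 had none and Sms had only 3 probe sets shared with other genes, so these 4 are not analysed here. Each gene is represented by its brightest probe set, by the mean of the 12 arrays. Further probe sets were held for 23 members, and the text gives some of those that differ. By that level 30 of the 34 lay in the brighter part of all genes (9092 genes above the median brightness), and Slc7a11, Slc43a1, Gldc and Gpt2 lay below it.

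The 4 groups held 3 arrays each, 12 in all, of a single-channel Affymetrix mouse array. They were B cells of EFLmDREAM transgenic mice (Tg) after 2 days of stimulation (day 2), with 20 µg/ml of LPS and 10 ng/ml of IL-4, B cells of wild type mice (WT) after the same 2 days, unstimulated Tg cells (day 0) and unstimulated WT cells (day 0). LPS is a bacterial cell wall component that activates B cells through a Toll-like receptor, and IL-4 is a cytokine that directs class switching. EFLmDREAM is a transgene carrying a form of DREAM. DREAM itself is the calcium-binding transcriptional repressor encoded by Kcnip3. The promoter of the transgene, the strain and the age of the mice are not given in the sources used here. The cells were isolated from spleen by depletion of CD43-bearing cells to a stated purity above 98%, and RPMI medium with a stabilised glutamine source and nonessential amino acids fed the cultures. The arrays are described as independent biological replicates.

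Changes are log2 differences ± SE from limma over the 12 arrays, with n = 3 arrays per group, and a gene is called where its p, adjusted by Benjamini and Hochberg over all 45037 probe sets, is under 0.05. Comparisons between genotypes at 1 day use the deposited log2 values. The array medians lay between 5.36 and 5.41 at day 2 and between 5.97 and 6.05 at day 0, so comparisons between days use values quantile-normalized over the 12 arrays, called jointly normalized here. Arrays of 1 group correlated at 0.984 to 0.997. A single array, WT day 0 replicate 1, stood apart. There the 5′ probe set of actin read 2.22 below the 3′ probe set (a log2 difference of -2.22). That difference was -0.67 to -0.54 in the other day 0 arrays and -1.36 (WT replicate 1) to -0.43 at day 2. For Gapdh it was -1.78 in WT day 0 replicate 1, against -0.38 to 0.02 in the other arrays. The 3′ probe set of 18S ribosomal RNA read 10.25 in this array, against 6.61 to 8.06 in the others. In replicate 3 of every group the Y-linked Eif2s3y read 3.33 to 3.78, against 8.27 to 9.55 in the other arrays. Xist, a transcript of female cells, ranged from 9.41 to 12.12 over the 12 arrays, those with high Eif2s3y included. Kcnip3 did not check the genotype labels: its brighter probe set read 6.78, 6.53 and 6.59 in Tg and 6.67, 6.56 and 6.58 in WT cells at day 2, and 7.00, 7.07 and 7.28 in Tg and 6.75, 6.71 and 7.19 in WT cells at day 0, with no call at either of its 2 probe sets (lowest adjusted p = 0.279 by limma). In whole-population RNA, fewer cells of a type and less RNA per cell cannot be told apart.

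Resting B cells are small and make little protein, and activation makes them grow, divide and secrete, which raises their need for amino acids. Carriers in the plasma membrane import leucine, glutamine, cystine and other amino acids; serine, imported or made from a glycolytic intermediate, gives carbon units to folate for nucleotide synthesis and for the methionine cycle. Asparagine synthetase and several carriers are known targets of ATF4, the transcription factor of the amino acid starvation response, and ornithine decarboxylase is a known target of MYC.

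The comparison of day 2 with day 0 in each genotype asked how these genes changed on activation. Most rose. In Tg cells 23 of 34 members rose and 6 fell, so that 85.3% were called. Of all 18193 genes 35.2% rose and 23.3% fell, 58.5% in all, and of the brighter genes 73.1% were called. In WT cells 23 members rose and 5 fell, 82.4%. Of all genes 36.0% rose and 24.0% fell there, 60.0% in all, and of the brighter genes 74.2% were called. The median change was 0.92 in Tg and 0.92 in WT cells, against 0.083 and 0.080 over all genes.

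The rises were also counted by size. At least 2-fold rises were called for 16 members in Tg cells, where 9.37% of all genes and 16.0% of the brighter genes rose so far, and for 16 members in WT cells, where the shares were 9.95% and 17.1%. At least 2-fold falls were called for 2 members in Tg cells and for 3 in WT cells, against 7.29% and 7.36% of all genes. The 2 days' arrays can be scaled in other ways: the median change of all probe sets was 0.040 in Tg and 0.037 in WT cells after joint normalization, -0.40 in both genotypes on the deposited values and 0.24 and 0.22 with array medians subtracted. The members' counts were 22 higher and 8 lower in Tg and 23 higher and 9 lower in WT cells on the deposited values, and 28 higher and 3 lower in Tg and 27 higher and 3 lower in WT cells with medians subtracted, so the share of rises among the calls ran from 73.3% to 90.3% in Tg and from 71.9% to 90.0% in WT cells. Of all genes, 18.6% were higher and 60.9% lower in Tg and 19.1% higher and 60.3% lower in WT cells on the deposited values. With medians subtracted, 52.8% of all genes were higher and 15% lower in Tg and 51.5% higher and 16.2% lower in WT cells. Under all 3 scalings and in both genotypes 13 members rose at least 2-fold: Slc7a5, Phgdh, Psat1, Shmt1, Shmt2, Mthfd1, Mthfd1l, Mthfd2, Ahcy, Asns, Got2, Aldh18a1 and Srm. Sat1 fell at least 2-fold under all 3, and Glul fell under all 3 by a smaller factor in at least 1 of them.

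**Figure D1:**
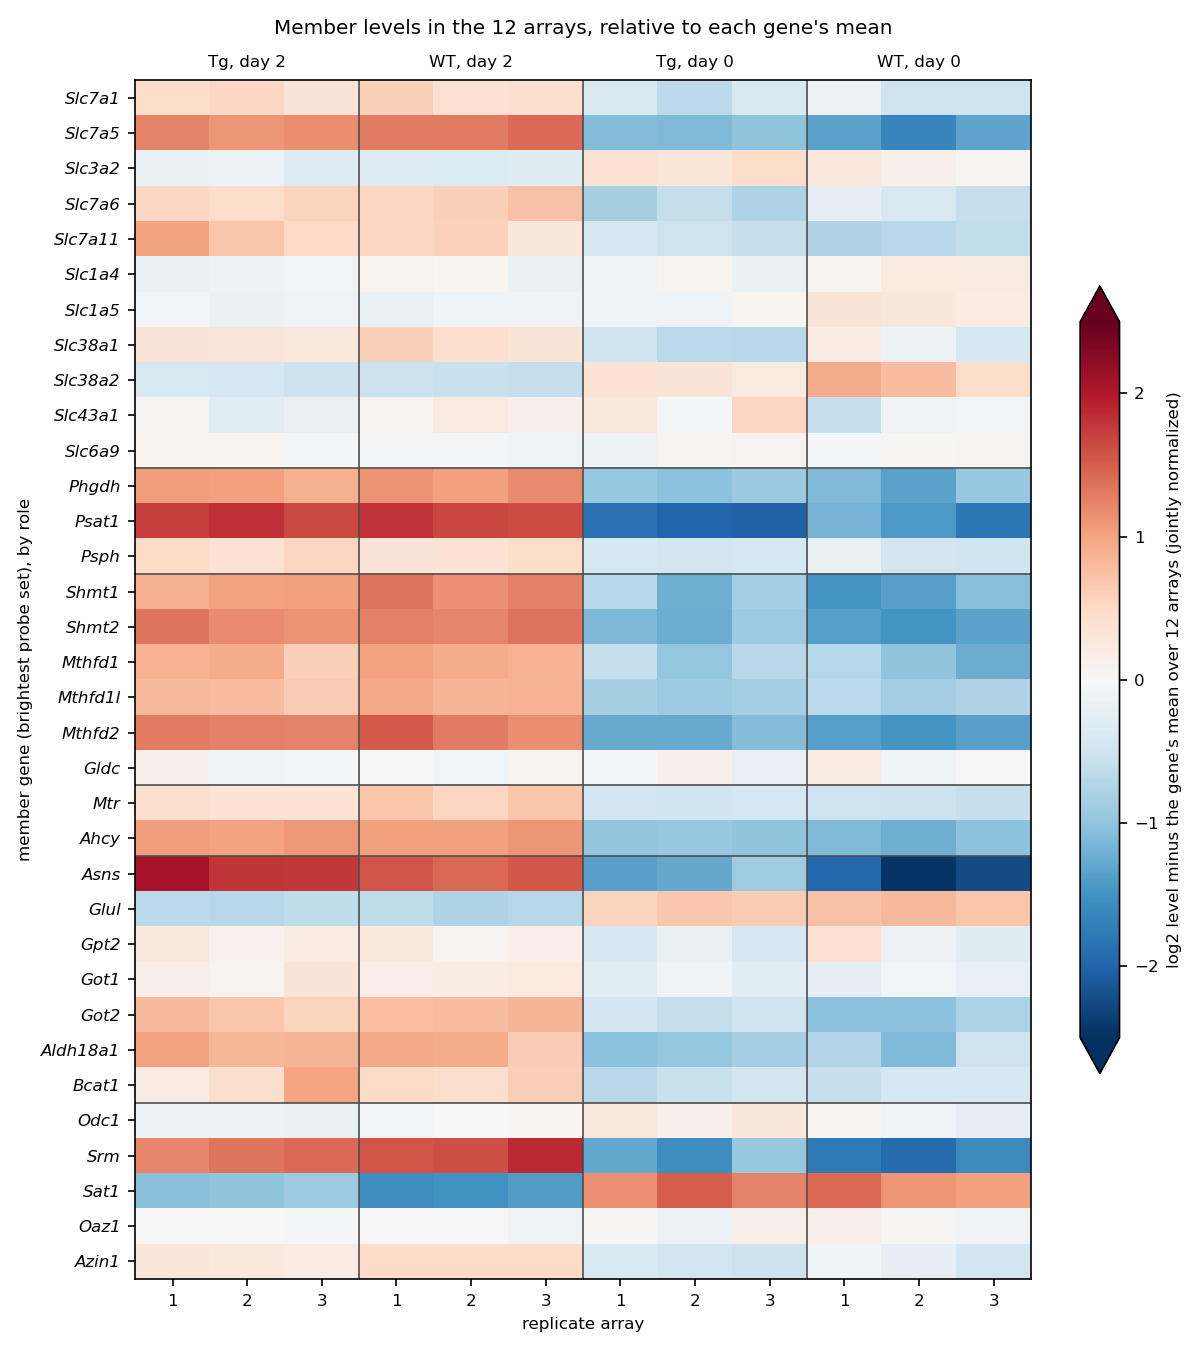
Level of each of the 34 members in the 12 arrays, as the jointly normalized log2 value minus the gene's mean over the 12 arrays (colour; red above and blue below the mean), with genes down the page by role and arrays across, Tg and WT at day 2 left of Tg and WT at day 0. Of the 34 members, 23 rose in each genotype, and Glul, Sat1 and Slc38a2 show the opposite colours.

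For each member whose array values are given for this comparison, the 6 arrays of day 2 and the 6 of day 0 did not overlap. These values are jointly normalized log2 levels. Such members were picked for the size of their change, for a genotype call or after their values were seen. Their lack of overlap therefore follows largely from that choice, and the share of all genes without overlap was not counted. Markers of other cells also moved between days: by the same test 8 of 8 neutrophil markers fell in Tg and 4 of 8 in WT cells, 10 of 11 macrophage and monocyte markers fell in Tg and 5 of 11 in WT cells, and 5 of 6 erythroid markers fell in Tg and 4 of 6 in WT cells. Of 7 B cell markers 6 fell in each genotype, and of 7 activated B cell markers 5 rose and 2 fell in each. The part of these cells in the members' changes between days was not tested.

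After joint normalization the carriers did not all move the same way: of 11, 5 rose and 3 fell in Tg and 6 rose and 3 fell in WT cells. Of all genes 35.2% rose and 23.3% fell in Tg and 36% and 24% in WT cells. The carriers' median change was 0.0075 in Tg and 0.40 in WT cells, against 0.083 and 0.080 over all genes. On the deposited values 5 rose and 5 fell in each genotype, with medians of -0.06 in Tg and -0.18 in WT cells. With array medians subtracted 8 rose and 1 fell in each genotype, with medians of 0.58 in Tg and 0.43 in WT cells. Among all genes 18.6% were higher and 60.9% lower in Tg and 19.1% and 60.3% in WT cells on the deposited values. The shares were 52.8% and 15% in Tg and 51.5% and 16.2% in WT cells with array medians subtracted. The balance of the carriers thus moved with the scaling, as did that of all genes. Slc7a5, the light chain of the leucine importer, had jointly normalized levels of 9.93, 9.81 and 9.87 in Tg and 9.97, 10.00 and 10.11 in WT cells at day 2. Slc7a5 read 7.62, 7.59 and 7.70 in Tg and 7.36, 7.04 and 7.38 in WT cells at day 0. Every WT array lay above every Tg array at day 2, a difference of -0.20 on the deposited values (95% interval -0.39 to -0.01, adjusted p = 0.425), while at day 0 every Tg array lay above every WT array. Slc7a5 rose by 2.23 ± 0.093 in Tg cells (4.70-fold, adjusted p = 5e-10 by limma) and by 2.77 ± 0.093 in WT cells (6.82-fold, adjusted p = 7.3e-11). Its heavy chain partner Slc3a2, which anchors several such light chains in the membrane, changed the other way, by -0.59 in Tg and -0.47 in WT cells, and this direction turned with array medians subtracted (0.33 and 0.43).

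Slc7a11, the cystine and glutamate exchanger that feeds glutathione synthesis, read 5.43, 5.11 and 4.94 in Tg and 4.96, 5.01 and 4.72 in WT cells at day 2. Slc7a11 read 4.00, 3.91 and 3.85 in Tg and 3.67, 3.74 and 3.80 in WT cells at day 0. Every day 2 array lay above every day 0 array, with rises of 1.24 in Tg (2.36-fold, adjusted p = 1.18e-06) and 1.15 in WT cells (2.22-fold, adjusted p = 2.16e-06). Slc38a2, a sodium-coupled carrier of small neutral amino acids, went the other way: its levels were 10.11, 10.06 and 9.98 in Tg and 9.96, 9.96 and 9.91 in WT cells at day 2. Slc38a2 read 10.85, 10.82 and 10.75 in Tg and 11.42, 11.27 and 10.96 in WT cells at day 0. It fell by 0.76 in Tg (1.69-fold lower, adjusted p = 2.81e-05) and by 1.27 in WT cells (2.42-fold lower, adjusted p = 1.91e-07), but with array medians subtracted its change in Tg cells was 0.087. Its dimmer probe sets gave -1.47 in Tg and -1.71 in WT cells (1429593_at) and 0.19 and -0.05 (1429594_at). Its relative Slc38a1 rose by 0.91 in Tg and 0.58 in WT cells.

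Among the other carriers, Slc7a1, the importer of arginine and lysine, rose by 0.92 in Tg and 0.85 in WT cells, and Slc7a6, an exchanger of cationic for neutral amino acids, by 1.23 and 1.02. Slc43a1, a facilitative carrier of large neutral amino acids, changed by -0.40 in Tg (adjusted p = 0.0439) and 0.40 in WT cells (adjusted p = 0.0424); the Tg call was lost without any 1 of 7 arrays and the WT call without any 1 of 6, with adjusted p up to 0.193 and 0.176. For the Tg call these were replicates 2 and 3 of Tg day 2, all of WT day 2, and replicates 1 and 3 of Tg day 0. For the WT call they were replicate 3 of Tg day 2, all of WT day 2, and replicate 1 of each genotype at day 0. Slc1a5, the main glutamine carrier of many proliferating cells, changed by -0.06 in Tg and -0.40 in WT cells at its brightest probe set and by 0.16 and 0.37 at the other, with calls in both directions in WT cells. Slc1a4, a carrier of alanine, serine and cysteine, had changes of -0.05 in Tg and -0.20 in WT cells at its brightest probe set, while its other probe sets gave 0.71 and 1.73 in Tg and 0.50 and 1.82 in WT cells. The glycine carrier Slc6a9 changed by 0.01 in Tg and -0.09 in WT cells at its brightest probe set and by -0.57 and -0.65 there on the deposited values, while its other probe set, 1417636_at, rose by 0.48 in Tg (adjusted p = 0.00526) and 0.68 in WT cells (adjusted p = 0.000458).

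All 3 enzymes that make serine rose in both genotypes. Phgdh, which takes 3-phosphoglycerate out of glycolysis, read 11.67, 11.63 and 11.50 in Tg and 11.74, 11.63 and 11.79 in WT cells at day 2. Phgdh read 9.67, 9.60 and 9.68 in Tg and 9.52, 9.28 and 9.67 in WT cells at day 0. Its rise was 1.95 in Tg (3.87-fold, adjusted p = 2.41e-09) and 2.23 in WT cells (4.70-fold, adjusted p = 6.07e-10), and the genotypes overlapped at both days. Psat1, the transaminase of the next step, read 10.85, 10.95 and 10.79 in Tg and 10.93, 10.81 and 10.75 in WT cells at day 2. Psat1 read 7.26, 7.15 and 7.11 in Tg and 7.96, 7.69 and 7.32 in WT cells at day 0. At day 2 the genotypes overlapped, while at day 0 every WT array lay above every Tg array. Psat1 rose by 3.69 ± 0.129 in Tg (12.9-fold, adjusted p = 1.24e-10) and by 3.17 ± 0.129 in WT cells (9.01-fold, adjusted p = 3.7e-10). Psph, the phosphatase that releases serine, read 9.04, 8.93 and 9.11 in Tg and 8.88, 8.90 and 9.03 in WT cells at day 2. Psph read 8.12, 8.10 and 8.14 in Tg and 8.39, 8.11 and 8.07 in WT cells at day 0. Its rise was smaller, 0.90 in Tg (1.87-fold, adjusted p = 2.02e-06) and 0.75 in WT cells (1.68-fold, adjusted p = 1.17e-05).

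Of the 6 folate genes, 5 rose in each genotype, with medians of 1.76 in Tg and 2.24 in WT cells. Mthfd2, the mitochondrial dehydrogenase that oxidises the folate-bound carbon, read 10.01, 9.97 and 9.95 in Tg and 10.23, 10.00 and 9.87 in WT cells at day 2. Mthfd2 read 7.43, 7.43 and 7.61 in Tg and 7.33, 7.23 and 7.34 in WT cells at day 0. It rose by 2.48 in Tg (5.58-fold, adjusted p = 2.24e-10) and by 2.73 in WT cells (6.64-fold, adjusted p = 8.15e-11). Shmt2, which splits serine in mitochondria, read 11.54, 11.38 and 11.33 in Tg and 11.47, 11.41 and 11.56 in WT cells at day 2. Shmt2 read 9.07, 8.95 and 9.30 in Tg and 8.83, 8.70 and 8.86 in WT cells at day 0. Shmt2 rose by 2.31 in Tg (4.95-fold, adjusted p = 6.13e-10) and by 2.69 in WT cells (6.43-fold, adjusted p = 1.43e-10) at this probe set, while probe set 1455985_x_at gave -0.45 in Tg (adjusted p = 0.00251) and -0.25 in WT cells.

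Shmt1, the cytosolic counterpart, read 9.31, 9.41 and 9.43 in Tg and 9.74, 9.54 and 9.67 in WT cells at day 2. Shmt1 read 7.68, 7.18 and 7.56 in Tg and 6.92, 7.04 and 7.34 in WT cells at day 0. Its rise was 1.91 in Tg (3.75-fold, adjusted p = 5.52e-08) and 2.55 in WT cells (5.88-fold, adjusted p = 3.16e-09). Mthfd1, the cytosolic folate enzyme of 3 activities, rose by 1.54 in Tg and 1.92 in WT cells, and Mthfd1l, which releases formate from mitochondria, by 1.60 and 1.67. Gldc, the decarboxylase of glycine cleavage and 1 of the dim members, changed by 0.04 in Tg and -0.04 in WT cells.

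Both measured genes of the methionine cycle rose. Ahcy, which clears the by-product of methylation, read 11.77, 11.74 and 11.82 in Tg and 11.76, 11.77 and 11.85 in WT cells at day 2. Ahcy read 9.76, 9.79 and 9.72 in Tg and 9.63, 9.51 and 9.70 in WT cells at day 0. It rose by 2.02 in Tg (4.07-fold, adjusted p = 1.32e-10) and by 2.18 in WT cells (4.52-fold, adjusted p = 6.36e-11), with little spread inside a group. Mtr, which remakes methionine with a folate-bound methyl group, read 7.96, 7.90 and 7.89 in Tg and 8.25, 8.09 and 8.24 in WT cells at day 2. Mtr read 7.07, 7.04 and 7.11 in Tg and 7.03, 7.01 and 6.98 in WT cells at day 0. Mtr rose by 0.84 in Tg (1.79-fold, adjusted p = 2.63e-07) and by 1.19 in WT cells (2.28-fold, adjusted p = 9.01e-09).

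**Figure D2:**
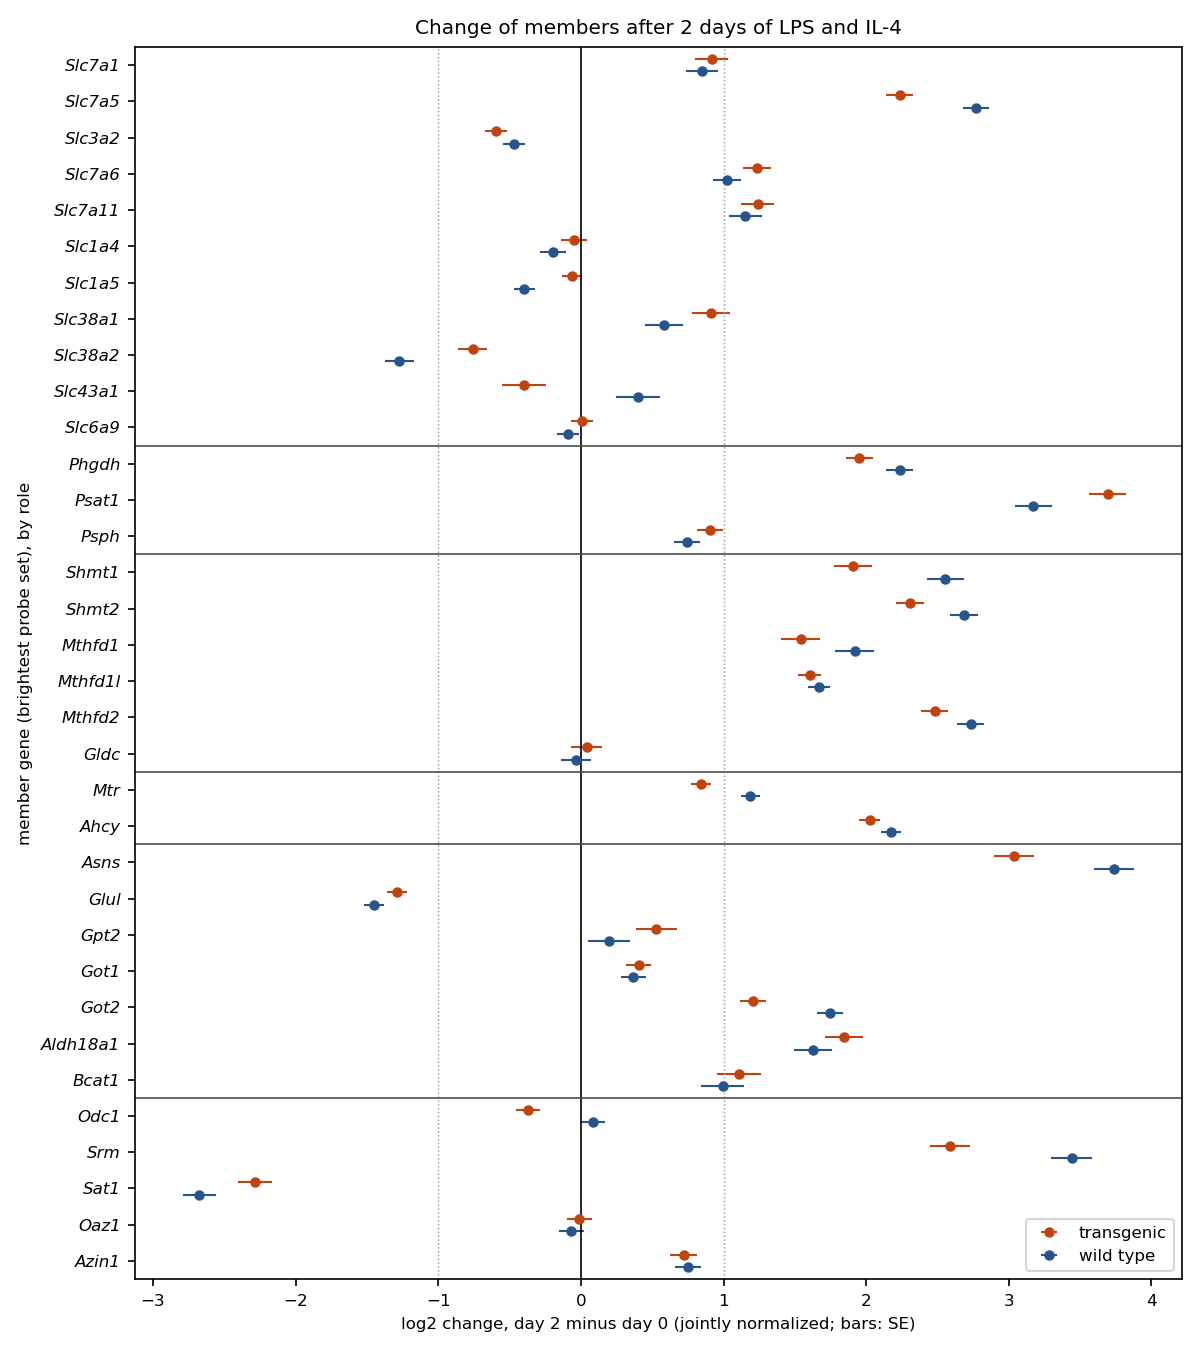
Change of each of the 34 members between days (log2, day 2 minus day 0, jointly normalized; points with SE bars from limma), for Tg (upper point of each pair) and WT cells (lower point), with dotted lines at 2-fold. The serine and folate enzymes other than Gldc lie right of 0 in both genotypes, Psat1 and Asns lie furthest right in Tg cells and Asns and Srm in WT cells, and Sat1 and Glul furthest left with Slc38a2.

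Of the 7 enzymes around glutamine, asparagine, proline and branched-chain amino acids, 6 rose and 1 fell in Tg and 5 rose and 1 fell in WT cells. Asns, which makes asparagine from aspartate and glutamine, had jointly normalized levels of 10.43, 10.17 and 10.14 in Tg and 9.96, 9.81 and 9.93 in WT cells at day 2. Asns read 7.03, 7.11 and 7.50 in Tg and 6.41, 5.93 and 6.14 in WT cells at day 0. Tg arrays lay above WT arrays at both days. Asns rose by 3.04 ± 0.141 in Tg (8.20-fold, adjusted p = 1.44e-09) and by 3.74 ± 0.141 in WT cells (13.4-fold, adjusted p = 1.96e-10), the largest change among the members' brightest probe sets in WT cells. The second Asns probe set rose by 3.58 in Tg and 4.23 in WT cells. Aldh18a1, the entry enzyme of proline synthesis, read 10.51, 10.31 and 10.35 in Tg and 10.45, 10.42 and 10.13 in WT cells at day 2. Aldh18a1 read 8.46, 8.52 and 8.65 in Tg and 8.75, 8.39 and 8.97 in WT cells at day 0. Its rise was 1.85 in Tg (3.60-fold) and 1.62 in WT cells (3.08-fold).

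Got2, the mitochondrial aspartate transaminase, read 11.95, 11.83 and 11.70 in Tg and 11.90, 11.93 and 11.99 in WT cells at day 2. Got2 read 10.67, 10.55 and 10.65 in Tg and 10.12, 10.11 and 10.35 in WT cells at day 0. It rose by 1.21 in Tg (2.31-fold) and 1.75 in WT cells (3.35-fold), while its dimmer probe set 1430397_at fell by 0.38 in Tg cells (adjusted p = 0.00448). The cytosolic Got1 rose by 0.41 in Tg and 0.37 in WT cells, and the mitochondrial alanine transaminase Gpt2 changed by 0.53 in Tg (adjusted p = 0.0073) and 0.20 in WT cells (adjusted p = 0.268), both of which turned negative on the deposited values (-0.10 and -0.41), while its other 3 probe sets rose by 0.92 to 2.08 in Tg and 1.00 to 1.44 in WT cells. Glul, which makes glutamine, was the member of this set that fell: it read 8.36, 8.32 and 8.40 in Tg and 8.39, 8.27 and 8.32 in WT cells at day 2. Glul read 9.58, 9.71 and 9.67 in Tg and 9.77, 9.85 and 9.73 in WT cells at day 0. Its falls were 2.45-fold in Tg (a change of -1.29, adjusted p = 6.09e-09) and 2.74-fold in WT cells (-1.45, adjusted p = 1.75e-09), but its other probe set changed by -0.19 in Tg and 0.15 in WT cells.

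Bcat1, the cytosolic transaminase of leucine, isoleucine and valine, showed how far probe sets of 1 gene can disagree. Its brightest probe set rose by 1.11 in Tg and 0.99 in WT cells. Probe set 1450871_a_at read 8.93, 8.88 and 8.89 in Tg and 9.42, 9.47 and 9.48 in WT cells at day 2. The same probe set read 3.79, 3.91 and 3.79 in Tg and 3.94, 3.96 and 3.88 in WT cells at day 0. It rose by 5.07 in Tg (33.6-fold) and by 5.53 in WT cells (46.2-fold). The remaining Bcat1 probe set, 1455699_at, gave 0.48 in Tg and 0.58 in WT cells.

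Among the polyamine genes Srm rose and Sat1 fell in both genotypes. Srm, which makes spermidine, read 11.54, 11.64 and 11.73 in Tg and 11.88, 11.93 and 12.18 in WT cells at day 2. Srm read 9.04, 8.75 and 9.36 in Tg and 8.55, 8.39 and 8.73 in WT cells at day 0. It rose by 2.59 in Tg (6.01-fold, adjusted p = 6.04e-09) and by 3.44 in WT cells (10.9-fold, adjusted p = 3.84e-10). Sat1, which acetylates spermidine and spermine for export and breakdown, read 8.03, 8.07 and 8.18 in Tg and 7.52, 7.57 and 7.69 in WT cells at day 2. Sat1 read 10.23, 10.59 and 10.32 in Tg and 10.51, 10.19 and 10.10 in WT cells at day 0. Sat1 fell 4.87-fold in Tg (-2.29 ± 0.117, adjusted p = 3.44e-09) and 6.38-fold in WT cells (-2.67 ± 0.117, adjusted p = 6.94e-10).

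Odc1, the enzyme that makes putrescine from ornithine, depended on the scaling. After joint normalization it fell by 0.37 in Tg cells (adjusted p = 0.00244) and changed by 0.09 in WT cells (adjusted p = 0.41). On the deposited values Odc1 changed by -0.08 in Tg (adjusted p = 0.41) and rose by 0.44 in WT cells (adjusted p = 0.000381), and with array medians subtracted it rose in both, by 0.56 in Tg (adjusted p = 8.28e-05) and 1.05 in WT cells (adjusted p = 1.98e-07). Its other probe sets gave -0.60 in Tg and -0.03 in WT cells (1437711_x_at) and -0.41 and 0.40 (1427364_a_at). Azin1, which releases Odc1 from its inhibitor, read 10.13, 10.09 and 10.02 in Tg and 10.29, 10.29 and 10.30 in WT cells at day 2. Azin1 read 9.44, 9.36 and 9.29 in Tg and 9.72, 9.58 and 9.34 in WT cells at day 0. Azin1 rose by 0.72 in Tg (1.65-fold) and 0.75 in WT cells (1.68-fold). The inhibitor itself, the antizyme Oaz1, changed by -0.01 in Tg and -0.07 in WT cells, and both turned positive with array medians subtracted (0.63 and 0.58).

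Promoters were searched because several members are known ATF4 or MYC targets. RefSeq windows of 300 bases on GRCm38.p6, which end 50 bases after each annotated start, were held for 33 of the 38 members, 40 windows in all. The core of the amino acid response element bound by ATF4, TGATGNAA, was sought on both strands (TTNCATCA on the other), as was CACGTG, the E-box bound by the MYC family, which reads the same on both strands. No member window held both. The response element core stood in 5 of the 40 member windows (Asns, Got1, Pycr1, Slc1a4 and Slc7a11) and in 3.97% of the 32851 windows of all genes. The E-box stood in 3 of the 40 (Aldh18a1, Slc43a1 and Sms) and in 7.15% of all windows. A match is a description of letters and no match says only that those letters are not in the window. The windows printed here are those of 4 members that rose in both genotypes and hold a match, with the match in capitals, and of Psat1 and Sat1, which had the largest rise in Tg cells and the largest fall, with no match and no capitals. All 6 lie on the minus strand and are written 5′ to 3′ on the gene's strand.
Asns (chr6:7693160-7693459, minus strand): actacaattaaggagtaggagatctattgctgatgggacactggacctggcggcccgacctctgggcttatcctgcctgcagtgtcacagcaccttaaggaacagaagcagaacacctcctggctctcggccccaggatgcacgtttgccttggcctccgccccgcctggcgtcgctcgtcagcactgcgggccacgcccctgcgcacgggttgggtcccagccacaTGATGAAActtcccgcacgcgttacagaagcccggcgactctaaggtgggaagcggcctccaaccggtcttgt
Slc7a11 (chr3:50443564-50443863, minus strand): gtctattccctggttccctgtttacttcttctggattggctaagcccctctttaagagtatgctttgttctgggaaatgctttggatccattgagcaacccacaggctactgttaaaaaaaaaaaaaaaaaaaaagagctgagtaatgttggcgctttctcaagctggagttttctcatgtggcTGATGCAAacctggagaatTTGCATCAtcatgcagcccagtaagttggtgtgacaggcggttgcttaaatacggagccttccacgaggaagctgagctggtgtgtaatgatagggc
Got1 (chr19:43524556-43524855, minus strand): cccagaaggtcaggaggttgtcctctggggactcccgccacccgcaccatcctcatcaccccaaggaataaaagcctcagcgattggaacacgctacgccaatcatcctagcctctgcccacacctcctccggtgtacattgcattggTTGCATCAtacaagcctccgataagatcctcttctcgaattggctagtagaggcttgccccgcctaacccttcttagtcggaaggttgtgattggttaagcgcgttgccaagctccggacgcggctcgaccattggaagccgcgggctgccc
Aldh18a1 (chr19:40588414-40588713, minus strand): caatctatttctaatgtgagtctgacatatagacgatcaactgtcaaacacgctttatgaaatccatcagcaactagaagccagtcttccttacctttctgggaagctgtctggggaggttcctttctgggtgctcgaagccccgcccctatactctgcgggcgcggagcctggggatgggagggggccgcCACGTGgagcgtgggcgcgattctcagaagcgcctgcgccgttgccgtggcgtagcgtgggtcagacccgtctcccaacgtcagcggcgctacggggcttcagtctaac
Psat1 (chr19:15925010-15925309, minus strand): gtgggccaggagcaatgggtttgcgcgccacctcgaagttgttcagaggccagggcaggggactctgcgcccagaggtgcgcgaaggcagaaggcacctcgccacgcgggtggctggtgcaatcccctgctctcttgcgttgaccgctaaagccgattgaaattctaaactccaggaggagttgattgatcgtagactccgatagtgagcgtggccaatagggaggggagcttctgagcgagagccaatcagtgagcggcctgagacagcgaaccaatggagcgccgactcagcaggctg
Sat1 (chrX:155216400-155216699, minus strand): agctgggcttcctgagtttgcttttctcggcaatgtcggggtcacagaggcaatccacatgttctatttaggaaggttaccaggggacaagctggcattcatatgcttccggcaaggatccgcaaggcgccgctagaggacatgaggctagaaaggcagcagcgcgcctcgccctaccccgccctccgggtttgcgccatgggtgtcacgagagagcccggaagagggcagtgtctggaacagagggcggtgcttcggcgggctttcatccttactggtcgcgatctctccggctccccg

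In the Asns window the core lies 23 bases before the start, in that of Got1 102 bases before it, and in that of Slc7a11 it occurs at 66 and at 47 bases before the start. The E-box of Aldh18a1 lies 59 bases before its start. Beside these windows, the transcript of Atf4 itself changed by -0.18 in Tg (adjusted p = 0.152) and -0.47 in WT cells (adjusted p = 0.00169) between days, and Myc fell by 1.67 in Tg (adjusted p = 7.4e-08) and by 1.25 in WT cells (adjusted p = 1.08e-06). Neither was called between genotypes at either day by limma: for Atf4 the adjusted p was 0.657 at day 2 and 0.61 at day 0, and for Myc 0.407 and 0.463. Nfe2l2, which encodes the oxidative stress factor NRF2 that also drives Slc7a11, was lower in Tg than in WT cells at day 2 (-0.40, adjusted p = 0.0137).

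The comparison of Tg with WT cells at day 0 asked whether these genes differed before stimulation. In Tg cells 4 members were higher (Slc7a5, Asns, Got2 and Odc1) and 3 were lower (the carriers Slc1a5, Slc38a1 and Slc38a2), 20.6% of the 34. Of all genes 5.45% were higher and 4.90% lower, 10.4% in all, and of the brighter genes 15.3% were called. The median difference over the members was 0.0083, against 0.013 over all genes. Asns was the 1 member called at 2-fold or more, where 1.18% of all genes were.

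Asns had deposited log2 values of 7.31, 7.39 and 7.69 in Tg and 6.67, 6.21 and 6.45 in WT cells at day 0. Every Tg array lay above every WT array. The difference was 1.02 ± 0.132 (2.03-fold, 95% interval 0.73 to 1.31 on the log2 scale, adjusted p = 0.000406 by limma), and its second probe set, 1433966_x_at, gave 1.06 ± 0.221 (adjusted p = 0.00956). The Asns call held without any 1 of the 12 arrays, with adjusted p from 0.000217 to 0.00253.

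Got2 read 10.52, 10.44 and 10.50 in Tg and 10.09, 10.06 and 10.24 in WT cells at day 0, with no overlap. It was 0.36 ± 0.077 higher (1.28-fold, adjusted p = 0.0115) and was called without any 1 of the 12 arrays (adjusted p up to 0.0474), but not on the mean of its 4 probe sets (0.23, adjusted p = 0.0857) or on only the 6 arrays of day 0 (adjusted p = 0.0613). Odc1 read 12.05, 11.90 and 12.05 in Tg and 11.77, 11.62 and 11.48 in WT cells, 0.38 ± 0.084 higher (1.30-fold, adjusted p = 0.0143), and its other probe sets 1437711_x_at and 1427364_a_at were also called, at 0.43 (adjusted p = 0.00271) and 0.41 (adjusted p = 0.0258). Without Tg day 0 replicate 1 or 3 the Odc1 call was lost (adjusted p up to 0.064). Slc7a5 read 7.81, 7.81 and 7.86 in Tg and 7.62, 7.32 and 7.58 in WT cells, 0.32 ± 0.088 higher (1.25-fold, adjusted p = 0.0383), with the call lost without any 1 of 6 arrays (adjusted p up to 0.128), namely replicate 2 of each genotype at day 2, all of Tg day 0 and replicate 2 of WT day 0. For Odc1 and Slc7a5 too, every Tg array lay above every WT array. The calls of Asns, Got2, Odc1 and Slc7a5 came from these same arrays, so the separation is no separate support for them.

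The 3 lower carriers all import small neutral amino acids or glutamine with sodium. Slc1a5 read 9.10, 9.14 and 9.21 in Tg and 9.58, 9.51 and 9.38 in WT cells, a difference of -0.34 ± 0.078 (1.27-fold lower, adjusted p = 0.0161), but its other probe set gave 0.38 (adjusted p = 0.09). Slc38a1 read 9.19, 9.07 and 8.98 in Tg and 9.92, 9.57 and 9.24 in WT cells, a difference of -0.50 ± 0.139 (1.41-fold lower, adjusted p = 0.0418), with 0.44 at its other probe set (adjusted p = 0.209). Slc38a2 read 10.70, 10.70 and 10.59 in Tg and 11.26, 11.11 and 10.81 in WT cells, a difference of -0.40 ± 0.101 (1.32-fold lower, adjusted p = 0.0271), with -0.13 (adjusted p = 0.393) and -0.02 (adjusted p = 0.957) at its other probe sets. In each of the 3, every WT array lay above every Tg array. The calls came from these same arrays, so the separation in these 3 is no separate support. For all 3 the highest array was WT day 0 replicate 1, the array with the low 5′ actin reading; without it no member was called lower, and the differences were -0.30 for Slc1a5 (adjusted p = 0.0532), -0.33 for Slc38a1 (adjusted p = 0.125) and -0.30 for Slc38a2 (adjusted p = 0.0882). Without WT day 0 replicate 3 instead, 7 members were higher and 6 lower, and without WT day 0 replicate 2 the counts were 3 and 1. The Slc1a5 call was also lost without Tg day 0 replicate 1, that of Slc38a2 without any array of Tg day 0 or replicate 2 of WT day 0, and that of Slc38a1 without any of these or any array of Tg day 2 or replicate 2 of WT day 2. The counts were 2 and 0 without Tg day 0 replicate 1, 6 and 1 without replicate 2 of that group and 2 and 1 without its replicate 3.

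The other 27 members were not called at day 0. Closest to the threshold were Psat1 (-0.44, adjusted p = 0.0527), Slc43a1 (0.54, adjusted p = 0.0539) and Srm (0.38, adjusted p = 0.064). With the replicate number as a block Psat1 (adjusted p = 0.0241) and Srm (adjusted p = 0.0171) were called. Over all 77 probe sets of the members, 9 were higher and 3 lower, against 9.45% of all probe sets called, and among them were 1 of Azin1 (1430984_at, 0.75, adjusted p = 0.0041) and 1 of Mthfd1 (1415917_at, 0.40, adjusted p = 0.0143), neither of them the brightest of its gene. None of the 3 serine enzymes was called by limma, with 0 higher and 1 lower at an unadjusted p under 0.05, and none of the 6 folate genes, with 2 higher and 0 lower.

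Markers of other cells moved with genotype at day 0. Of 8 neutrophil markers, 8 were higher in Tg cells, with a mean log2 level of 9.66 to 10.17 in Tg and 6.13 to 6.41 in WT arrays. Of 11 macrophage and monocyte markers 10 were higher (8.30 to 8.59 in Tg, 6.81 to 7.09 in WT), of 6 erythroid markers 5 (7.54 to 8.02 in Tg, 5.89 to 6.50 in WT), of 8 plasma cell markers 7 (9.56 to 9.79 in Tg, 8.72 to 9.02 in WT) and of 9 T and NK cell markers 3 (6.75 to 6.90 in Tg, 6.12 to 6.48 in WT). Of 7 B cell markers none was higher and 1, Blk, was lower, with means of 11.50 to 11.56 in Tg and 11.46 to 11.68 in WT arrays. Of 7 activated B cell markers 2, Cd86 and Ccnd2, were higher and 1, Il4ra, was lower. Their means were 9.68 to 9.73 in Tg and 9.45 to 9.52 in WT arrays. The part of these cells in the members' differences was not tested.

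**Figure D3:**
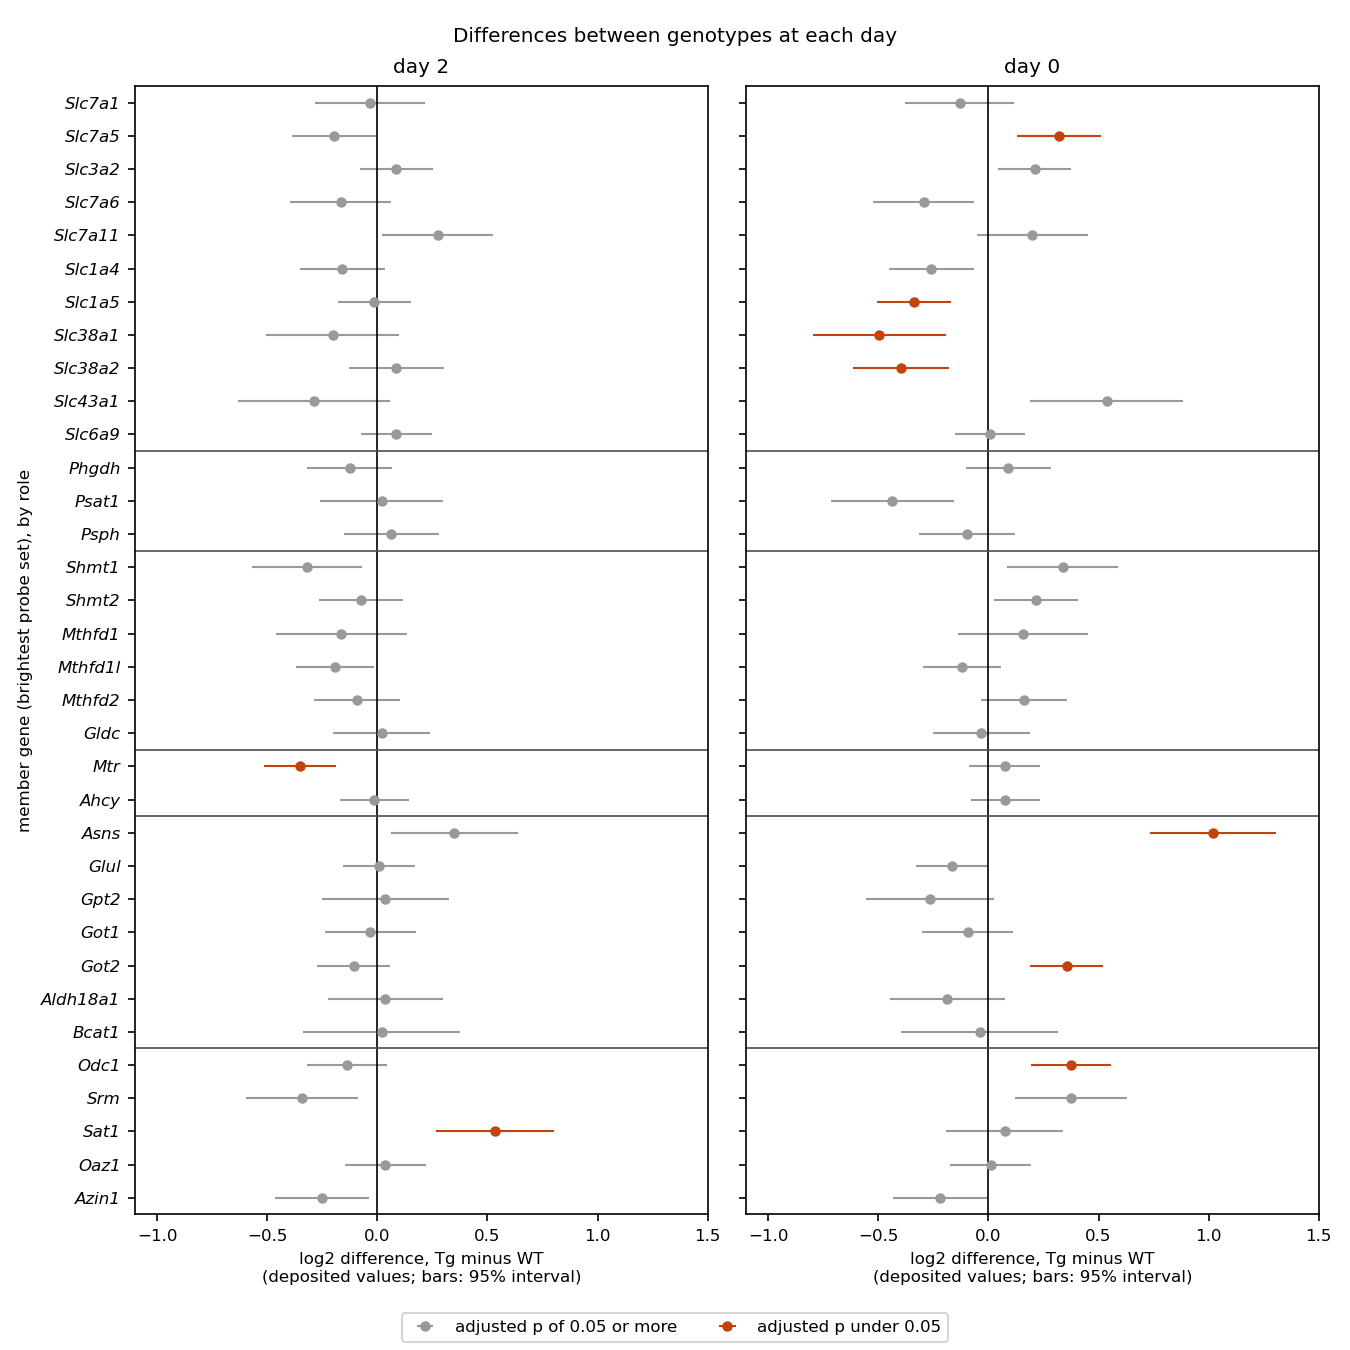
Difference between Tg and WT cells for each of the 34 members at day 2 (left panel) and day 0 (right panel), as the log2 difference of deposited values, Tg minus WT, with 95% intervals from limma; coloured points have an adjusted p under 0.05. At day 0, 4 members lie to the right and 3 to the left with a call, Asns furthest, and at day 2 the calls are Sat1 and Mtr.

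At day 2 the same comparison called 1 member higher and 1 lower of 34, 5.88%. Of all genes 1.24% were higher and 1.10% lower, 2.34% in all, and of the brighter genes 3.93% were called. The median difference over the members was -0.033, against 0 over all genes. Sat1 had deposited values of 7.89, 7.90 and 8.02 in Tg and 7.30, 7.37 and 7.54 in WT cells, with no overlap, and was 0.53 ± 0.123 higher in Tg cells (1.45-fold, adjusted p = 0.0478 by limma). Mtr read 7.80, 7.70 and 7.70 in Tg and 8.14, 7.95 and 8.16 in WT cells, also with no overlap, and was lower by 1.27-fold (-0.35 ± 0.075, adjusted p = 0.0327). For Sat1 and Mtr too, the lack of overlap comes from the arrays that gave the calls. Both calls lie near the threshold: Sat1 was lost without any 1 of 9 arrays (adjusted p up to 0.167) and Mtr without any 1 of 7 (adjusted p up to 0.153). For Sat1 these were all 6 arrays of day 2, replicates 1 and 3 of Tg day 0 and replicate 2 of WT day 0. For Mtr they were all of Tg day 2, replicates 1 and 3 of WT day 2 and replicates 1 and 3 of Tg day 0. On the mean of the 2 Mtr probe sets the day 2 difference was -0.13 and was not called (adjusted p = 0.525 by limma). That mean was called higher in Tg cells at day 0 (0.26, adjusted p = 0.0441). With the replicate number as a block Sat1 was not called, and 0 members were higher at day 2.

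Among the 77 probe sets of the members, the day 2 difference of largest size lay at the Bcat1 probe set 1450871_a_at, which is not the brightest of its gene. It read 8.90, 8.82 and 8.83 in Tg and 9.47, 9.50 and 9.53 in WT cells at day 2, a difference of -0.65 ± 0.066 (adjusted p = 0.000146), while at day 0 it read 3.96, 4.07 and 3.97 in Tg and 4.12, 4.13 and 4.08 in WT cells. Asns read 10.53, 10.23 and 10.23 in Tg and 10.04, 9.87 and 10.03 in WT cells at day 2, again with Tg above WT in every array, but its difference of 0.35 ± 0.132 was not called (95% interval 0.06 to 0.64, adjusted p = 0.297). None of the 11 carriers was called by limma, with 1 higher and 1 lower at an unadjusted p under 0.05. At day 2 neutrophil markers had mean levels of 5.32 to 5.60 in Tg and 4.82 to 4.93 in WT arrays (3 of 8 higher) and macrophage and monocyte markers 6.10 to 6.41 in Tg and 5.61 to 5.79 in WT arrays (3 of 11 higher). Plasma cell markers had 9.13 to 9.20 in Tg and 8.52 to 8.75 in WT arrays (5 of 8 higher), and erythroid markers 4.48 to 4.58 in Tg and 4.52 to 4.61 in WT arrays (none of 6 called). The part of these cells in the day 2 differences was not tested.

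**Figure D4:**
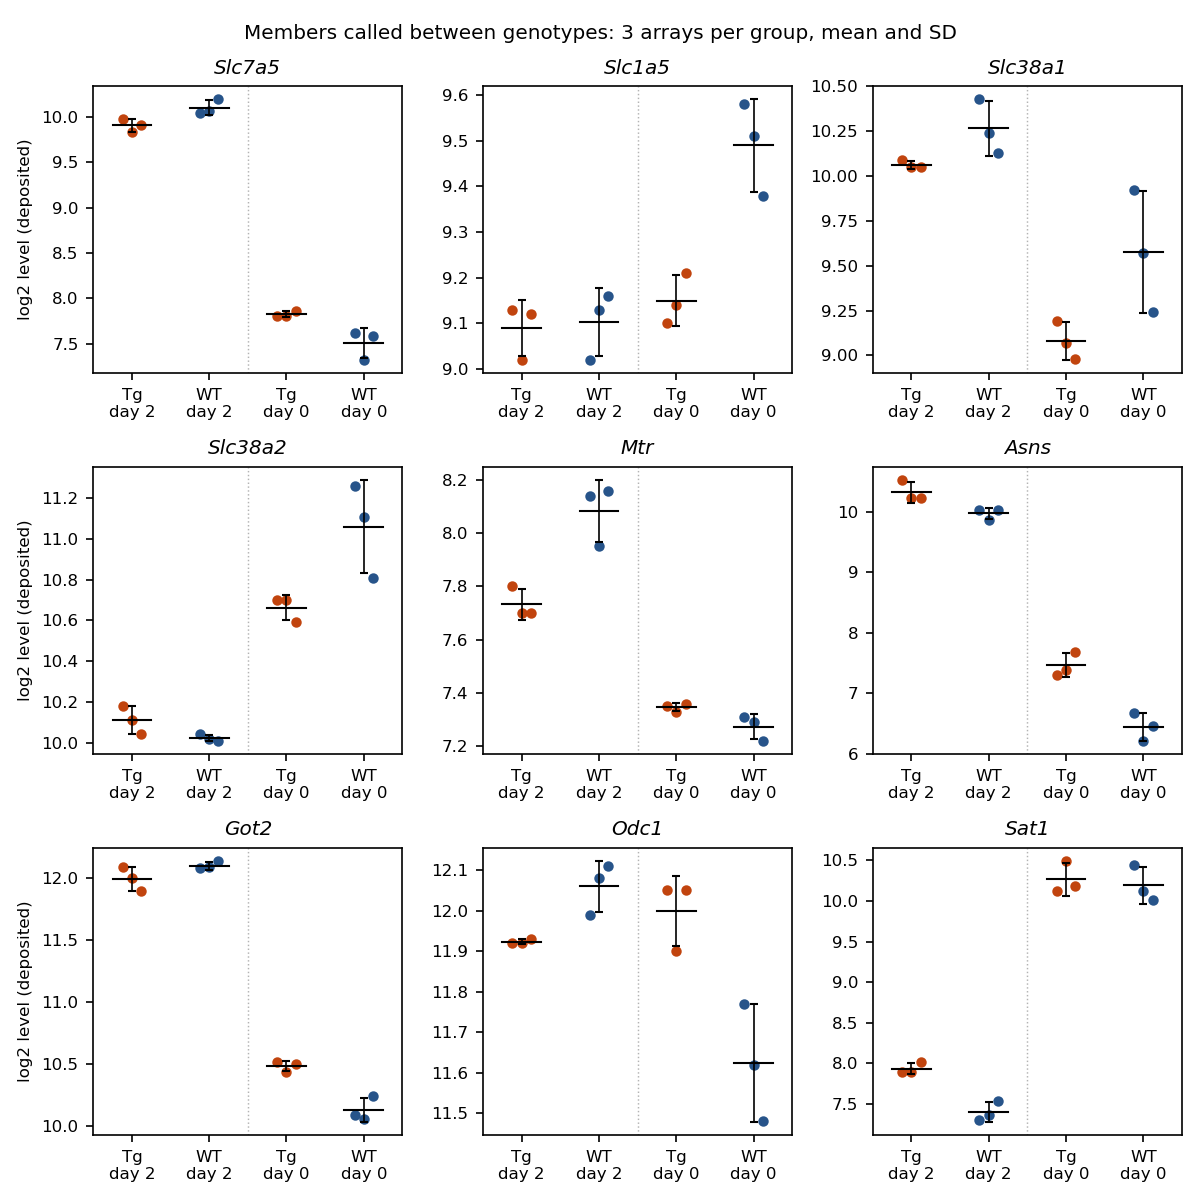
Deposited log2 level of the 9 members called between genotypes, by array (points), with group mean and SD (bars; 3 arrays per group), Tg left of WT at day 2 and at day 0; each panel has its own axis, which does not start at 0. Asns at day 0 and Sat1 at day 2 show Tg above WT without overlap, and Slc38a1 and Slc38a2 show a wider WT than Tg spread at day 0.

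Whether the change between days differed between genotypes was tested as an interaction, the Tg minus WT difference at day 2 minus that at day 0. No member was called at its brightest probe set by limma, against 1.98% of all genes, and 4 were higher and 9 lower at an unadjusted p under 0.05. The lowest adjusted p belonged to Srm (-0.72, adjusted p = 0.053), Odc1 (-0.51, adjusted p = 0.0533) and Got2 (-0.46, adjusted p = 0.0553). For Asns, called at day 0 and not at day 2, the interaction was -0.67 ± 0.187 (adjusted p = 0.114), so a difference between the days was not shown. With the replicate number as a block Srm was called for the interaction (adjusted p = 0.0131). Calls appeared when single arrays were left out: 2 higher and 4 lower without WT day 0 replicate 3, 3 lower without WT day 0 replicate 1 and 2 lower without Tg day 0 replicate 2.

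Of the 77 probe sets, 4 had a called interaction, all of them negative, against 1.58% of all probe sets. They were Odc1 1427364_a_at (-0.76, adjusted p = 0.0205), Mthfd1 1415917_at (-0.62, adjusted p = 0.028), Odc1 1437711_x_at (-0.56, adjusted p = 0.0179) and Bcat1 1450871_a_at (-0.54, adjusted p = 0.0124). For Odc1 the deposited values of the brightest probe set show the pattern: 11.92, 11.92 and 11.93 in Tg and 11.99, 12.08 and 12.11 in WT cells at day 2. Odc1 read 12.05, 11.90 and 12.05 in Tg and 11.77, 11.62 and 11.48 in WT cells at day 0. Tg arrays lay below WT arrays at day 2 and above them at day 0. The day 2 difference at this probe set was not called (-0.14, adjusted p = 0.64 by limma), nor was its interaction (adjusted p = 0.0533).

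**Figure D5:**
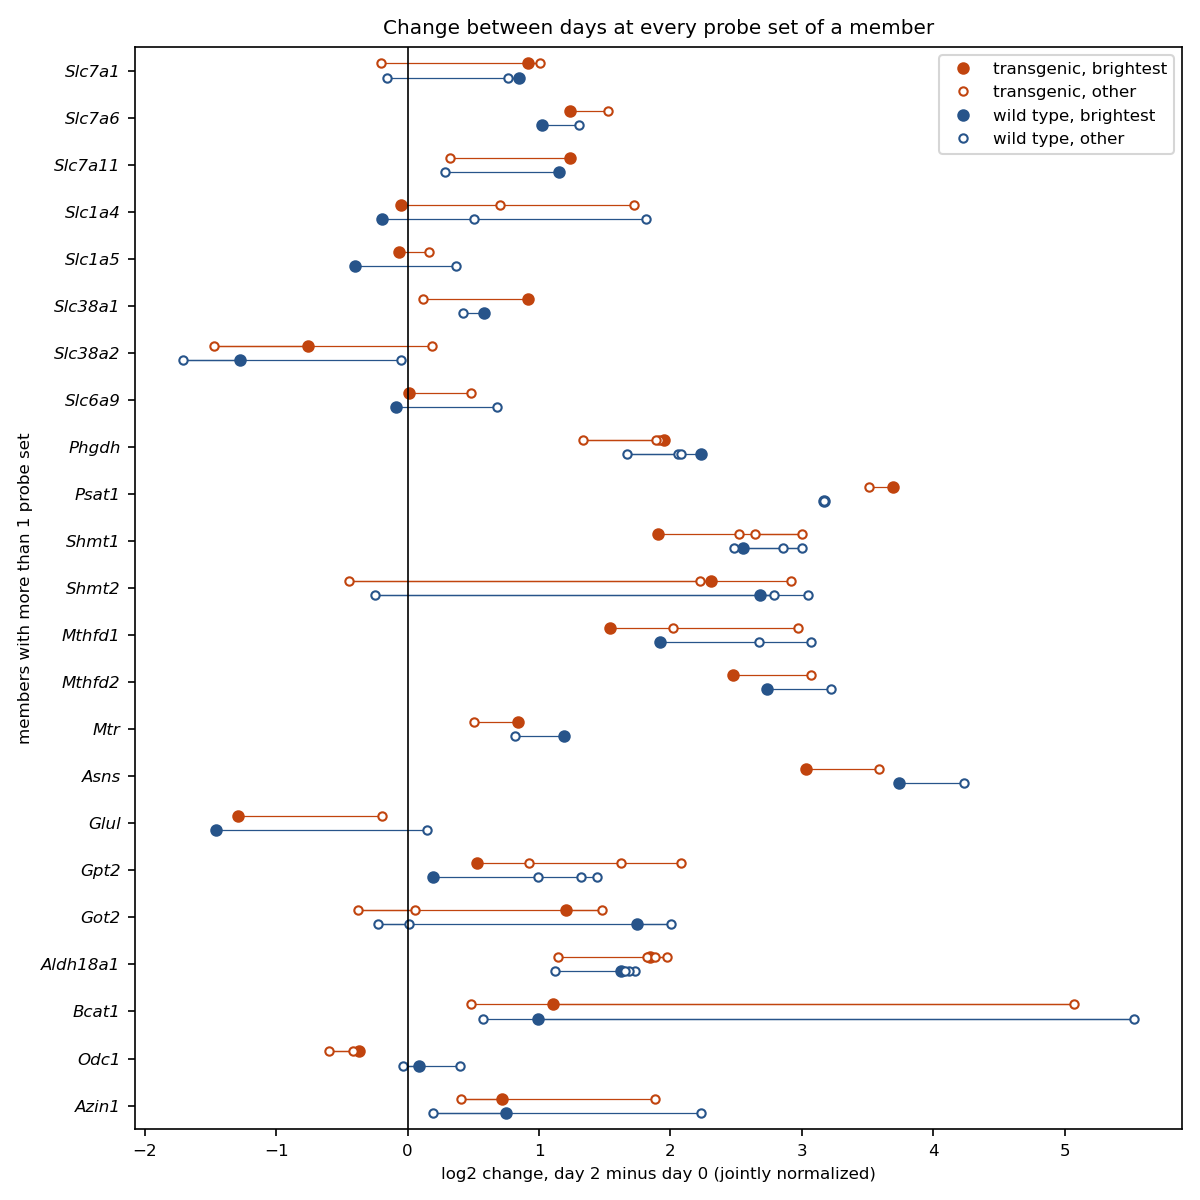
Change between days (horizontal axis, log2, day 2 minus day 0, jointly normalized) at every probe set of the 23 members with more than 1, Tg above WT for each gene; filled points are the brightest probe set, open points the others, and lines join probe sets of a gene. For Bcat1 the probe sets run from 0.48 to 5.07 in Tg and from 0.58 to 5.53 in WT cells, and for Slc1a4 from -0.05 to 1.73 in Tg and from -0.20 to 1.82 in WT cells.

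Genes of the same pathways outside the 38 were counted from lists written with earlier results of these data known. Of all genes 35.2% rose and 23.3% fell between days in Tg and 36% and 24% in WT cells. On the deposited values the shares were 18.6% and 60.9% in Tg and 19.1% and 60.3% in WT cells. With array medians subtracted they were 52.8% and 15% in Tg and 51.5% and 16.2% in WT cells. Between genotypes 10.4% of all genes were called at day 0, 2.34% at day 2 and 1.98% for the interaction. Of 19 genes of the amino acid stress response around ATF4, 2 were higher and 2 lower in Tg cells at day 0: Chac1, a glutathione-degrading enzyme (1.04 ± 0.117, adjusted p = 0.000145), and the transcription factor gene Atf3 (0.52 ± 0.108, adjusted p = 0.00953) were higher, and Ddit3 (-0.38), which encodes CHOP, and the kinase gene Eif2ak3 (-0.35) were lower. At day 2 Atf3 (0.65), Chac1 (0.62) and Atf5 (0.43) were higher in Tg cells and none was lower. Between days 9 of the 19 rose and 5 fell in Tg and 9 rose and 6 fell in WT cells; Cth, which makes cysteine, rose by 4.27 in Tg and 3.73 in WT cells, and the stress genes Ppp1r15a (-3.64 and -3.55), Cebpb (-2.87 and -2.93) and Atf3 (-2.37 and -2.38) fell. On the deposited values 6 rose and 9 fell in Tg cells, so the balance of this list depended on the scaling.

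Of 27 other amino acid carriers, 13 rose and 2 fell in Tg and 13 rose and 4 fell in WT cells between days. On the deposited values the counts became 6 and 13 in Tg and 7 and 13 in WT cells. On those values 60.9% of all genes in Tg and 60.3% in WT cells were lower. Slc7a3, an importer of cationic amino acids, rose by 4.09 in Tg and 3.90 in WT cells, and the mitochondrial carriers Slc25a13, of aspartate and glutamate, by 2.64 and 2.69, and Slc25a15, of ornithine, by 2.11 and 2.01. At day 0 4 of the 27 were higher in Tg cells and none lower: Slc38a5, a glutamine carrier (0.92), Slc16a10, an aromatic amino acid carrier (0.63), Slc7a7 (0.47) and Slc7a8 (0.34). Slc7a7, a light chain for cationic amino acid export, was also higher at day 2 (0.50).

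Of 24 other measured one-carbon and sulfur amino acid genes, 13 rose and 3 fell in Tg and 11 rose and 4 fell in WT cells between days, against 8 and 11 in Tg and 9 and 13 in WT cells on the deposited values. The thymidylate synthase gene Tyms rose by 2.58 in Tg and 2.76 in WT cells, and the purine synthesis genes Gart and Atic, which use folate-bound carbon, by 2.00 and 1.56 in Tg and 2.32 and 2.16 in WT cells. Gcsh, the carrier protein of glycine cleavage, was lower in Tg cells at day 2 (-0.58, adjusted p = 0.00143) and had a called interaction (-0.63, adjusted p = 0.013); it rose by 2.23 in Tg and 2.85 in WT cells. At day 0 the methionine synthase reductase gene Mtrr was higher (0.36) and Mthfs, a folate salvage enzyme, lower (-0.82).

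Of 15 other measured genes of glutamine, urea cycle, proline and branched-chain metabolism, 9 rose and 3 fell in Tg and 8 rose and 1 fell in WT cells between days; Ppat, which uses glutamine to start purine synthesis, rose by 2.45 in Tg and 2.52 in WT cells, and Bckdha, of branched-chain keto acid oxidation, changed by -1.57 and -1.40. None of the 15 was called between genotypes at day 2 by limma, with 0 at an unadjusted p under 0.05. Glud1, glutamate dehydrogenase (0.44), and Bckdk, the kinase that restrains branched-chain oxidation (0.25), were higher in Tg cells at day 0. Of 19 other polyamine and hypusine genes, 12 rose and 4 fell in Tg and 12 rose and 2 fell in WT cells between days, with Enoph1 (1.93 and 1.70) and Mtap (1.34 and 1.30), which recycle the methylthio group left by polyamine synthesis, and Dhps (1.24 and 1.19), which makes hypusine. On the deposited values these polyamine and hypusine genes gave 10 rises and 8 falls in Tg and 8 rises and 7 falls in WT cells, and the 15 glutamine, urea cycle, proline and branched-chain genes 8 and 5 in Tg and 9 and 4 in WT cells. Smox, spermine oxidase, was higher (0.69) and Atp13a3, a polyamine transporter, lower (-0.58) in Tg cells at day 0, and Arg1, arginase, was higher at day 2 (0.96) with an interaction of 0.96 (adjusted p = 0.0499).

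For mTORC1, the growth kinase complex, 21 genes by which amino acids are sensed were measured. Between days 3 rose and 11 fell in Tg and 3 rose and 12 fell in WT cells. With array medians subtracted 9 rose and 6 fell in Tg and 10 rose and 8 fell in WT cells. These counts moved with the scaling, as did those of all genes. After joint normalization the list's median change was -0.41 in Tg and -0.34 in WT cells, against 0.083 and 0.080 over all genes. Those medians were -0.50 and -0.52 on the deposited values, against -0.36 in both genotypes. They were 0.14 and 0.10 with array medians subtracted, against 0.28 and 0.26. The list's median thus lay below that of all genes under all 3 scalings. Sesn1 (-2.64 in Tg, -2.69 in WT) and Sesn3 (-1.72 and -2.01), which encode sestrins that restrain mTORC1, fell. Between genotypes none of the 21 was called by limma at either day, with 0 higher and 6 lower at day 0 and 1 higher and 1 lower at day 2 at an unadjusted p under 0.05.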

How the data were processed

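Labelled cRNA from splenic B cells (4 µg of total RNA per sample) was hybridised to 12 Affymetrix mouse arrays. The authors deposited 1 log2 value per probe set and array, summarised by RMA with affy per the submitters' processing notes, without versions. The sources used here do not give whether the arrays of both days were normalized together. Higher values mean more signal, and levels are not compared between probe sets. Precision is limited by the 3 arrays per group.

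The table holds 45101 probe sets, of which 64 controls of the array were not used. GEO's platform annotation gave 34945 of the 45037 others a single symbol, 932 several and 9160 none, and 34741 also matched a RefSeq gene by Entrez identifier. No filter on low values was applied. A single limma model (version 3.58.1, R 4.3.3) held a coefficient for each of the 4 groups, without a block, followed by eBayes with a constant prior (8 residual degrees of freedom, with 4.71 prior ones on the deposited and 4.55 on the jointly normalized values). The 5 contrasts were Tg against WT at each day, day 2 against day 0 in each genotype, and the interaction; the interaction used the deposited values, in which a shift common to all arrays of a day cancels. Tests are 2-sided. The procedure was tested on simulated data.

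The members and lists were chosen with earlier results of these data known. Array values are given for members called between genotypes, at least at the day of the call. They are also given for the 3 members of each role with the largest change between days in WT cells. For each pathway list and comparison, the rule picked up to 4 called genes of largest size, and the text names only some of them. Others named, such as Slc3a2, Glul, Bcat1 and single probe sets, were chosen after their values were seen. RefSeq promoter windows of GRCm38.p6 were matched by symbol.

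Arrays with the same replicate number were compared by the correlation of their deviations from the group means: 0.330, 0.101 and 0.178 between the genotypes at day 2 and 0.327, 0.176 and 0.219 between the days in WT cells, all above 0.1, against 0.078, 0.070 and 0.297 between the genotypes at day 0 and 0.066, -0.159 and 0.119 between the days in Tg cells. Arrays of different numbers correlated at up to 0.112 between the genotypes at day 0 and up to 0.159 between the days in Tg cells. They reached 0.057 between the genotypes at day 2 and 0.091 between the days in WT cells. The labels name no pairing. Beside these correlations, the Y-linked Eif2s3y was low in replicate 3 of every group (3.33 to 3.78, against 8.27 to 9.55 in the others). Replicate number thus went with this reading in all 4 groups. The main model held no block for it, and whether same-numbered arrays were paired was not tested. Alternatives were other scalings, a filter on dim probe sets, an intensity trend in the prior, the mean over a gene's probe sets, fits on the 6 arrays compared, the replicate block and leaving out each array. Choosing the probe set by its highest group mean and leaving out replicate 3 of every group were added after seeing the data.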

Additional observations from a re-analysis of the deposited data

Results flagged for a closer look

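By limma's interaction test over all probe sets, the change between days differed between genotypes at 4 of the members' 77 probe sets. Of all probe sets 1.58% were called. The 4 belong to 3 members, and 2 of them to Odc1. None is the brightest of its gene, and no member was called for the interaction at its brightest probe set. The interaction, the Tg minus WT difference at day 2 minus that at day 0, was -0.76 for Odc1 1427364_a_at, -0.56 for Odc1 1437711_x_at, -0.62 for Mthfd1 1415917_at and -0.54 for Bcat1 1450871_a_at. For both Odc1 probe sets and for Mthfd1 the Tg cells were called higher at day 0, by 0.41, 0.43 and 0.40, whereas for Bcat1 the Tg cells were called lower at day 2, by -0.65. Outlying arrays were not tested within the groups of 3.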

How the results depend on the processing

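Leaving out each array in turn gave 2 to 7 members higher and 0 to 6 lower in Tg than in WT cells at day 0, 0 to 1 higher and 0 to 1 lower at day 2, 23 to 23 higher and 5 to 6 lower between days in Tg cells, 22 to 23 higher and 5 to 5 lower between days in WT cells, and 0 to 2 higher and 0 to 4 lower for the interaction. Without replicate 3 of every group, chosen after seeing the data, 2 members were higher and 4 lower at day 0, 0 and 0 at day 2, 22 and 5 between days in Tg and 23 and 5 in WT cells. With the replicate block, 0 members were higher at day 2 (Sat1 was lost) and 1 had a lower interaction (Srm); it changed no call between days, and at day 0 it added Psat1 and Srm (5 higher and 4 lower).

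Quantile normalization left 0 members higher and 0 lower at day 2, and subtracting array medians left 0 higher. An intensity trend in the prior left 0 lower at day 2 and gave 3 lower for the interaction, leaving out dim probe sets gave 2, and the mean of a gene's probe sets gave 3. That mean left 1 member lower at day 0, Psat1, with Slc38a1, Slc38a2 and Got2 no longer called and Slc1a5 turned. On only the 6 arrays compared, 1 member was higher (Asns) and 0 lower at day 0, and 0 were lower at day 2. With the probe set of highest group mean, 2 members were lower at day 2 and 1 for the interaction, where Bcat1 took -0.65 and -0.54.

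Between days, the members that fell numbered 9 in WT cells on the deposited values and, with medians subtracted, 3 in Tg and 3 in WT cells. Directions turned on the deposited values for Slc6a9 (-0.57), Gldc (-0.60) and Gpt2 (-0.10) in Tg cells and for Slc43a1 (-0.20) and Gpt2 (-0.41) in WT cells. With medians subtracted they turned for Slc3a2 (0.33), Slc1a4 (0.27), Slc1a5 (0.58), Slc38a2 (0.087), Odc1 (0.56) and Oaz1 (0.63) in Tg cells and for Slc3a2 (0.43), Slc1a5 (0.23) and Oaz1 (0.58) in WT cells. With the mean of a gene's probe sets they turned for Slc1a5 at day 0 (0.020) and between days for Slc1a4 (0.80 in Tg, 0.71 in WT) and Slc6a9 in WT cells (0.29). The cause of these changes was not tested. The signal over background of single probe sets was not analysed here, and it limits the precision for dim members such as Gldc, Slc43a1 and Slc7a11.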
